A study of Mus musculus with 6 samples.

Results

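The annexins are a family of calcium-dependent, phospholipid-binding proteins, and the 8 genes Anxa1, Anxa2, Anxa3, Anxa4, Anxa5, Anxa6, Anxa7 and Anxa11 are described here. They were chosen by gene symbol, and each symbol had a single row among the 55951 genes of the deposited expression table. RNA was measured by sequencing of polyadenylated RNA from spleen CD8+ T cells of C57BL/6 mice that carry an S100A4-EGFP reporter, in which EGFP marks cells expressing S100A4, and in which asthma had been induced with ovalbumin (OVA). Sorted cells of the gate CD3+CD8+CD4-CD44+CD62L-, which defines effector-memory cells, were divided into an EGFP+ group, S100A4-positive, and an EGFP- group, S100A4-negative, with 3 libraries each. Both groups therefore share the reporter, the strain, the asthma model and the tissue. The labels give no ages, treat the samples as otherwise untreated and do not say whether each of the 3 samples of a group is from an animal of its own. The p-values below hence set the difference between the groups against the spread between these samples, and that spread may be technical. The comparison asked how the RNA of S100A4-positive effector-memory CD8+ T cells differs from that of S100A4-negative ones.

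Annexins share a core of repeats that binds negatively charged phospholipids, above all phosphatidylserine, when calcium rises, and a variable amino-terminal tail that sets what else each protein binds. Several tails bind S100 proteins: annexin A2 pairs with S100A10, annexin A1 with S100A11 and annexin A11 with S100A6. In leukocytes annexins are known for membrane repair, membrane traffic and, for annexin A1, the dampening of inflammation through formyl peptide receptors.

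Levels are FPKM as the authors deposited them, fragments per kilobase of transcript scaled to sequencing depth, so that genes can be compared per length. A fold change is the mean log2(FPKM + 1) of the S100A4-positive libraries less that of the S100A4-negative ones; adding 1 shrinks the changes of genes near 0. The test was limma, run on the 13241 genes whose FPKM averaged 1 or more, with Benjamini-Hochberg adjustment over all of them. A gene was called at an adjusted p under 0.05. All 8 annexins passed the filter on low values.

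The libraries held 14925260 to 18660188 reads recovered from the deposited values, and 0.0769% to 0.211% of all FPKM fell on the 8 annexins. S100a4, the gene the reporter follows, was low throughout, at 1.27, 4.02 and 1.52 FPKM in S100A4-positive libraries and at 0, 0.405 and 0.129 FPKM in S100A4-negative libraries. Of its exon bases, 51.7% are shared with Gm42674, and these levels rest on 9, 25 and 11 reads in S100A4-positive and 0, 3 and 1 reads in S100A4-negative libraries. Markers of the gated cells and of other cells differed between the groups. The counts of called markers stand beside 19.0% of all tested genes called higher in S100A4-positive libraries and 43.4% called lower. Cd8a, the coreceptor chain of the sort, was at 13.6, 22.4 and 31.9 FPKM in S100A4-positive libraries and at 187, 85.2 and 139 FPKM in S100A4-negative libraries. Of 10 T cell markers, all 10 were called lower, and their summed level was 277.6 to 422 FPKM in S100A4-positive and 1860.5 to 2170.0 FPKM in S100A4-negative libraries. Of 15 monocyte and macrophage markers, 14 were called higher and 1 was not tested, and their sum was 5627 to 6170 FPKM in S100A4-positive and 398 to 586 FPKM in S100A4-negative libraries. Of 8 dendritic cell markers, 6 were called higher (sums of 495 to 974 FPKM in S100A4-positive and 308 to 389 FPKM in S100A4-negative libraries). All 9 neutrophil markers were called lower (410.2 to 1704 FPKM in S100A4-positive and 3284 to 4853 FPKM in S100A4-negative libraries), as were all 7 B cell markers and 6 of 7 plasma cell markers. Of these 6 lists, none had a marker at 0 in every library. Natural killer cell markers summed to at most 9.94 FPKM in any library and erythroid markers to at most 101 FPKM; of the platelet markers, Gp1bb was at 0 in every library and the sum was 4.81 to 6.51 FPKM in S100A4-positive and 11.8 to 19.97 FPKM in S100A4-negative libraries. Their part in the annexin differences was not tested, and in such bulk samples fewer cells of a type and less RNA per cell cannot be told apart.

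Of the 8 annexins, 5 rose: Anxa4 most in fold, Anxa5 most in FPKM, and then Anxa3, Anxa2 and Anxa7. Anxa6 fell, and Anxa1 and Anxa11 did not pass the test. The 5 called higher stand against a background in which 19.0% of all tested genes were called higher in S100A4-positive libraries, and the 1 called lower against 43.4%; together 62.3% of all tested genes were called. In 5 annexins every S100A4-positive library lay above every S100A4-negative one, in 1 every one lay below, and in 2 the groups overlapped. Among all tested genes 20.9% lay above and 49.1% below in this way, 70.0% in all. The median log2 fold change of the 8 was 1.18, beside -0.36 for all tested genes. Between scalings, the median of all tested genes moved by 0.33 with median-of-ratios rescaling. Where stated, a fold change is therefore also given relative to that median. On this relative scale the median of the 8 was 1.54.

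**Figure D1:**
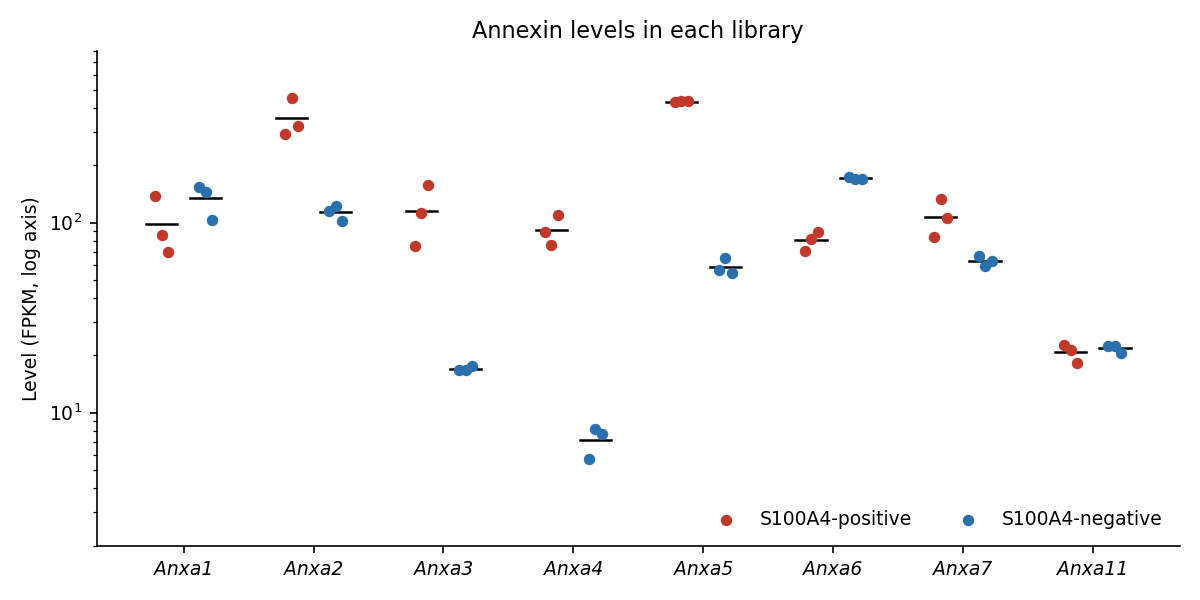
Level of each annexin in FPKM (log axis) in the 3 S100A4-positive (red) and 3 S100A4-negative (blue) libraries; each point is a library and each black line a group mean. Red lies above blue without overlap for Anxa2, Anxa3, Anxa4, Anxa5 and Anxa7, below it for Anxa6, and among it for Anxa1 and Anxa11.

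Annexin A5 is the phosphatidylserine-binding protein used in the laboratory to stain dying cells. Anxa5 (ENSMUSG00000027712, a protein-coding gene on the - strand of chromosome 3, 36448923 to 36475894 of GRCm38, the build of all positions here) was at 430.0, 433.7 and 433.8 FPKM in S100A4-positive libraries and at 56.2, 65.0 and 54.3 FPKM in S100A4-negative libraries. The S100A4-positive libraries differed among themselves by a coefficient of variation of 0.494%, below the counting error of 1.28% that its 6098 or more reads per library allow. The log2 fold change was 2.87 (SE 0.11, limma adjusted p = 8.72e-06), a 7.39-fold difference of means, and it was higher in 3 of 3 libraries.

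Annexin A4 binds membranes of secretory epithelia and other cells. Anxa4 (ENSMUSG00000029994, chromosome 6, 86736840 to 86793584, - strand) was at 88.8, 76.6 and 109 FPKM in S100A4-positive libraries and at 5.68, 8.25 and 7.71 FPKM in S100A4-negative libraries. It was the lowest of the 8 annexins in every S100A4-negative library, with 140 to 213 reads, while it overlapped Anxa6 in the S100A4-positive ones. Its means differed 12.7-fold, and the log2 difference of 3.49 (SE 0.18; adjusted p from limma 1.86e-05) was the largest of the 8. Without any one library the fold change ranged from 3.35 to 3.61.

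Annexin A3 is abundant in neutrophils and is also made by other myeloid cells. Anxa3 (ENSMUSG00000029484, chromosome 5, 96793339 to 96845966, + strand) was at 75.7, 112 and 157 FPKM in S100A4-positive libraries and at 16.8, 16.8 and 17.6 FPKM in S100A4-negative libraries. The S100A4-negative libraries were nearly alike and the S100A4-positive ones spread 2.08-fold, yet the groups did not overlap. The log2 fold change was 2.62 (SE 0.24, limma adjusted p = 1.59e-04). The coefficient of variation was 35.6% in S100A4-positive and 2.92% in S100A4-negative libraries, where counting alone allows 3.03% and 6.43% in the library with the fewest reads.

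Of the 9 marker lists, 2 had sums in the same order as Anxa3 over S100A4-positive replicates 1, 2 and 3. Only a few orders are possible for 3 libraries, so unrelated genes can share one. The T cell markers summed to 277.6, 309 and 422 FPKM there and the dendritic cell markers to 495, 822 and 974 FPKM. Most of the spread of the dendritic cell sum came from Ccr7, at 141, 449 and 484 FPKM, which did not pass the test between the groups (log2 fold change 0.06), while Itgax was at 326, 298 and 405 FPKM. These lists were set beside Anxa3 after the values were seen, and their part in its spread was not tested.

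Annexin A2 carries the binding site for S100A10, and the pair is a cell-surface receptor for plasminogen and its activator. Anxa2 (ENSMUSG00000032231, chromosome 9, 69453620 to 69491795, + strand) was at 294, 451 and 322 FPKM in S100A4-positive libraries and at 115, 123 and 101 FPKM in S100A4-negative libraries. Replicate 2 was the highest of the S100A4-positive libraries, and all 3 lay above every S100A4-negative library. The log2 fold change was 1.63 (SE 0.18, limma adjusted p = 3.27e-04), or 1.44 without that replicate.

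RefSeq promoter sequences (build GRCm38.p6) were at hand for 6 of the 8 genes, all but Anxa3 and Anxa6. The stretches before the start sites of the 3 genes with the largest rises among them are shown, since these genes rose together; each is printed 5′ to 3′ on its gene's strand, without bases inside the annotated gene. Capitals mark matches, on either strand, to the motifs of a GC box, spelled GGGCGG, or of the transcription factor AP-1, spelled TGANTCA; the Anxa4 and Anxa5 stretches hold neither.
Anxa4 (chr6:86793595-86793834, - strand): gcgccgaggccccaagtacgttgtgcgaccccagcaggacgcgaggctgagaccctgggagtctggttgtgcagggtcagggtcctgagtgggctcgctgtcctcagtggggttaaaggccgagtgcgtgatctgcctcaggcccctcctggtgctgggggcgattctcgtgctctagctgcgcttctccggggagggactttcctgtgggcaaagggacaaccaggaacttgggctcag
Anxa5 (chr3:36475898-36476137, - strand): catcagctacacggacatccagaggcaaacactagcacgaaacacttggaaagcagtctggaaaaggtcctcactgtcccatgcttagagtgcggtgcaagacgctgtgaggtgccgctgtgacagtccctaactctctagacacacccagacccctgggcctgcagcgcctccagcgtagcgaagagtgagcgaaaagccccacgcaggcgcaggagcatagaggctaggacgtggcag
Anxa2 (chr9:69453433-69453619, + strand): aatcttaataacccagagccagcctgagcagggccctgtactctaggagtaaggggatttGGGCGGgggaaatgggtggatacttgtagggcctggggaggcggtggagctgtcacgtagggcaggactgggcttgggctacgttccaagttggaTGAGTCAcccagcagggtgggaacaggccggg

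In the window from 250 to 11 bases before the RefSeq start, 5 motifs were searched on both strands. The GC box occurs in 31.3% and the AP-1 motif in 6.6% of all 32851 promoters in that window. The core of the ETS factors, here spelled GAGGAA, occurs in 22.3%. The TATA box was searched as TATAAA and occurs in 12.1%. The CCAAT box occurs in 33.0%. Anxa4, Anxa5 and Anxa7 held none of the 5. Anxa2 held the GC box at 3 places, AP-1 at 1 and the TATA box at 1; the TATA box and 2 of the GC boxes are in the part of the window that is not printed because it lies inside the annotated gene. Of the genes that did not pass the test, Anxa11 held the GC box and the ETS core and Anxa1 the ETS core and the TATA box. A match is a description of letters and not of a bound site.

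Annexin A1 is the glucocorticoid-induced inhibitor of inflammation that binds formyl peptide receptors. Anxa1 (ENSMUSG00000024659, chromosome 19, 20373428 to 20390944, - strand) was at 137, 86.2 and 70.0 FPKM in S100A4-positive libraries and at 153, 144 and 104 FPKM in S100A4-negative libraries. The groups overlapped, because S100A4-positive replicate 1 lay above S100A4-negative replicate 3. The log2 fold change was -0.49 (SE 0.26, 95% confidence interval -1.10 to 0.13, limma adjusted p = 0.143). Without S100A4-positive replicate 1 it was -0.76 and passed the test (limma adjusted p = 0.0151), and with median-of-ratios rescaling it was -0.11 (limma adjusted p = 0.760).

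Neutrophils are rich in annexin A1, and the 9 neutrophil markers summed to 1704, 523 and 410.2 FPKM in S100A4-positive replicates 1, 2 and 3 and to 4853, 4853 and 3284 FPKM in S100A4-negative replicates 1, 2 and 3. Within the S100A4-positive libraries Anxa1 and the marker sum took the same order, and within the S100A4-negative ones both were lowest in replicate 3, although S100A4-positive replicate 1 had more Anxa1 and a lower marker sum than S100A4-negative replicate 3. The B cell sum also took the order of Anxa1 within the S100A4-positive libraries, over the narrower range of 1528, 1496 and 1450 FPKM; no other of the 9 lists did. As for Anxa3, an order over 3 libraries can be shared by unrelated genes. The neutrophil list was set beside the gene after its values were seen, and its part in the spread of Anxa1 was not tested.

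**Figure D2:**
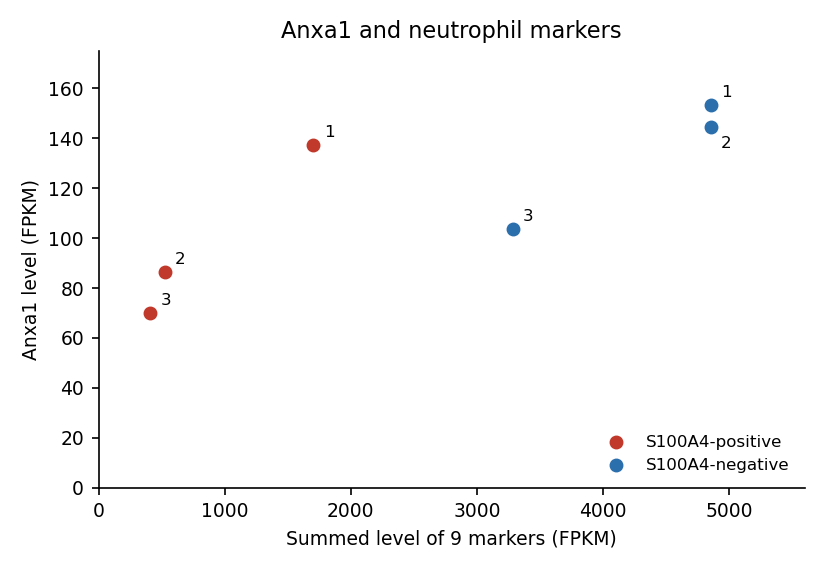
Anxa1 level against the summed level of 9 neutrophil markers, both in FPKM, one numbered point per replicate library of the S100A4-positive (red) and S100A4-negative (blue) groups. S100A4-positive replicate 1 has the highest Anxa1 level and marker sum (137 and 1704 FPKM) of its group, and S100A4-negative replicate 3 the lowest of its group (104 and 3284 FPKM).

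Annexin A6 has a duplicated core and is a scaffold at the plasma membrane and endosomes. Anxa6 (ENSMUSG00000018340, chromosome 11, 54979108 to 55033445, - strand) was at 71.0, 81.8 and 89.4 FPKM in S100A4-positive libraries and at 173, 169 and 170.2 FPKM in S100A4-negative libraries. Every S100A4-positive library lay below every S100A4-negative one, and the S100A4-negative libraries varied by 0.977%, with 6891 or more reads each. The log2 fold change was -1.08 (SE 0.12, limma adjusted p = 3.27e-04), which is -0.72 relative to the median of all tested genes. It was called lower with each of the alternatives, with its smallest change of -0.70 in the voom fit with size factors. It is not called in the authors' deposited table, where its log2 fold change is -0.69 and its adjusted p is 0.0523.

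Annexins A7 and A11 have long tails rich in glycine and proline; annexin A7 acts in membrane fusion and annexin A11 couples RNA granules to lysosomes. Anxa7 (ENSMUSG00000021814, chromosome 14, 20455260 to 20480133, - strand) was at 83.8, 133 and 105 FPKM in S100A4-positive libraries and at 66.6, 59.2 and 63.0 FPKM in S100A4-negative libraries. The groups did not overlap, and the log2 fold change was 0.74 (SE 0.17, limma adjusted p = 0.00819), the smallest of the 5 that rose. Anxa11 (ENSMUSG00000021866, chromosome 14, 25842156 to 25886804, + strand) was at 22.8, 21.2 and 18.3 FPKM in S100A4-positive libraries and at 22.3, 22.6 and 20.7 FPKM in S100A4-negative libraries. The groups overlapped and the log2 fold change was -0.07 (SE 0.12, 95% confidence interval -0.37 to 0.22, limma adjusted p = 0.621), while the sign turned to 0.29 with median-of-ratios rescaling, 0.16 with quantile normalization and 0.31 with voom and size factors, none of which passed.

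Reads of Anxa11 are the least certain of the family. In the GENCODE M21 transcripts, 16.2% of its windows of 50 bases also occur in other genes, most of them in Gm2260 and Gm2274, both listed at 0 in every library. For the other 7 genes this share was at most 1.79%, and no such window was shared between any of the 8 annexins. Anxa2, Anxa4 and Anxa11 share 2.63%, 1.61% and 2.73% of their exon bases with genes on the opposite strand, and Anxa3 shares 3.07% with a gene on its own strand; those genes were at 0.536 FPKM or less on average.

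**Figure D3:**
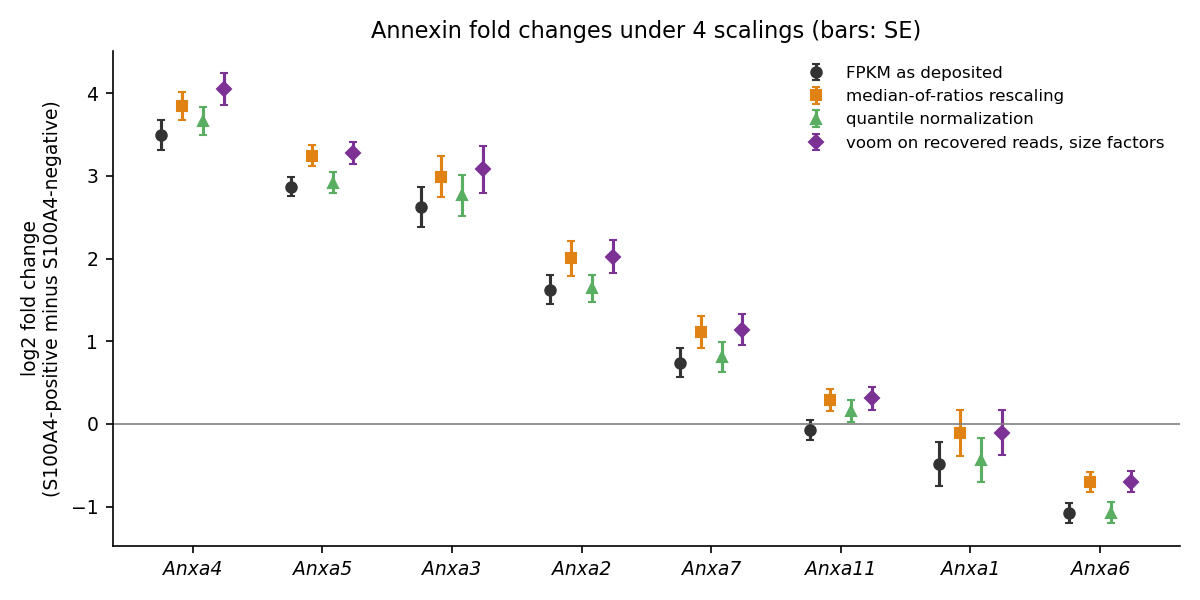
Log2 fold change, S100A4-positive minus S100A4-negative, of each annexin with its standard error, from FPKM as deposited (black circles), after median-of-ratios rescaling (orange squares), after quantile normalization (green triangles) and from voom on recovered reads with size factors (purple diamonds). The 5 genes on the left stay above 0 and Anxa6 stays below 0 in each; Anxa11 changes sign, from -0.07 to 0.29 with median-of-ratios rescaling.

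The authors' deposited table called the same 5 genes higher and no annexin lower, where 11.6% of its 28627 genes with an adjusted p were called higher and 7.35% lower. The log2 fold changes in the authors' deposited table were 4.05 for Anxa4, 3.27 for Anxa5, 3.14 for Anxa3, 2.05 for Anxa2 and 1.17 for Anxa7. For Anxa1 and Anxa11 the authors' deposited table has -0.07 and 0.31, neither of them called. The table and the fit here use the same libraries, with values scaled differently.

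The order of annexin levels differed between the groups. In S100A4-positive libraries Anxa5 and Anxa2 led, with means of 433 ± 2.14 and 356 ± 83.7 FPKM (SD, n = 3), and their libraries overlapped. Anxa3, Anxa7, Anxa1, Anxa4 and Anxa6 followed with means from 115 down to 80.8 FPKM, and each neighbour in that order overlapped the next. Anxa11 was lowest, below every one of the others. In S100A4-negative libraries Anxa6 led at 171 ± 1.67 FPKM, above every library of Anxa1, which averaged 134 ± 26.5 FPKM and overlapped Anxa2 at 113 ± 10.7 FPKM (SD, n = 3). Anxa7 and Anxa5 overlapped at 62.9 and 58.5 FPKM, and Anxa11, Anxa3 and Anxa4 came last without overlap.

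The 8 genes together summed to 1203, 1396 and 1306 FPKM in S100A4-positive libraries and to 608, 608 and 539 FPKM in S100A4-negative libraries. The log2 difference of the sums was 1.15. An exact permutation test, two-sided, gave p = 0.1, and 3 against 3 libraries can give none smaller. Anxa5 made up 35.8%, 31.1% and 33.2% of the sum in S100A4-positive libraries and 9.24%, 10.7% and 10.1% in S100A4-negative libraries. Anxa6 made up 6.20% ± 0.557 in S100A4-positive and 29.3% ± 2.03 in S100A4-negative libraries (SD, n = 3). The share of Anxa1 was 7.65% ± 3.28 in S100A4-positive and 22.7% ± 3.10 in S100A4-negative libraries (SD, n = 3). Anxa2 accounted for 27.1% ± 4.47 in S100A4-positive and 19.3% ± 0.760 in S100A4-negative libraries (SD, n = 3). Anxa7, although it rose in level, accounted for 8.20% ± 1.30 in S100A4-positive and 10.8% ± 0.991 in S100A4-negative libraries (SD, n = 3). Anxa1 and Anxa11 had lower shares in S100A4-positive libraries too, although their levels overlapped between the groups and did not pass, since the sum they are divided by was higher. These shares do not depend on the scaling between libraries. For each of the 8 genes the groups did not overlap in share (p = 0.1 in the exact permutation test), as was so for 87.8% of all tested genes when divided by the same sum.

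**Figure D4:**
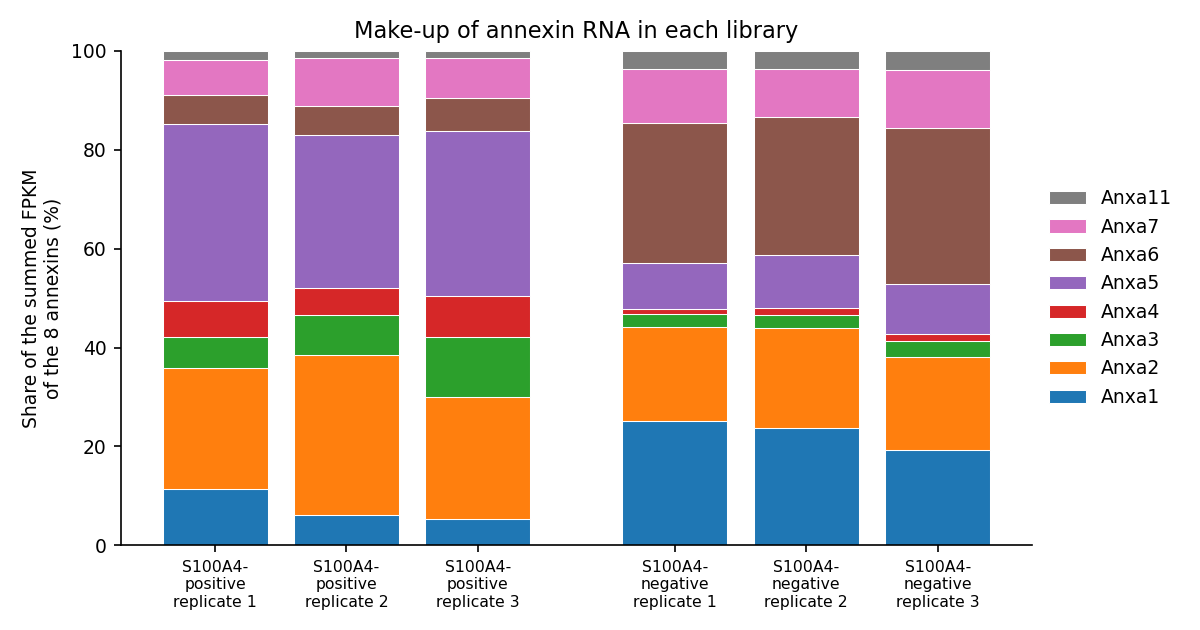
Share of each annexin in the summed FPKM of the 8, in percent, one bar per library, with the 3 S100A4-positive libraries on the left and the 3 S100A4-negative ones on the right. Anxa5 takes 31.1% to 35.8% of the S100A4-positive bars and 9.24% to 10.7% of the S100A4-negative bars, while Anxa6 takes 5.86% to 6.85% of the S100A4-positive bars and 27.8% to 31.6% of the S100A4-negative bars.

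Ratios of 2 annexins within a library are likewise free of scaling. Of the 28 pairs, 25 had ratios that did not overlap between the groups; of all pairs of the 12958 tested genes above 0 in every library, 64.7% had such ratios. The widest was Anxa4 to Anxa6, at 1.14 ± 0.174 in S100A4-positive and 0.0423 ± 0.00833 in S100A4-negative libraries (SD, n = 3), a log2 difference of 4.75. The ratio of Anxa5 to Anxa6 was 5.40 ± 0.608 in S100A4-positive and 0.343 ± 0.0358 in S100A4-negative libraries (SD, n = 3). The pairs whose ratios overlapped were Anxa1 with Anxa6, Anxa1 with Anxa11, and Anxa3 with Anxa5. Anxa3 over Anxa5 was 0.266 ± 0.0936 in S100A4-positive and 0.294 ± 0.0336 in S100A4-negative libraries (SD, n = 3), with p = 0.7 in an exact permutation test.

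Genes whose proteins work with annexins were examined as lists, by counts in the same fit, which are to be read beside the 19.0% of all tested genes called higher and the 43.4% called lower. Of 9 protein partners, 4 rose and 2 fell. The other 3 did not pass, and the median over the 9 was 0.37. Pla2g4a, the cytosolic phospholipase A2 that annexin A1 is known to inhibit, rose to 9.35, 6.81 and 9.47 FPKM in S100A4-positive libraries, against 0.479, 1.04 and 1.49 FPKM in S100A4-negative libraries (log2 fold change 2.27, SE 0.23, limma adjusted p = 2.46e-04). On the log2 scale S100a6 rose by 1.18 and Flna, an actin crosslinker, by 0.81. The fourth, S100a4, is the gene whose reporter divided the groups, so its direction follows from the sort; its log2 fold change of 1.39 depends on the pseudocount and was 3.21 with a pseudocount of 0.1, and it was below the filter on low values without S100A4-positive replicate 2. The 2 that fell were S100a10 and Pdcd6, a calcium-binding partner of annexins A7 and A11 (log2 fold change -0.45), both named after their values were seen; with median-of-ratios rescaling neither was called lower.

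S100a10, the partner of annexin A2, went the other way from Anxa2 in FPKM as deposited. It was at 107, 128 and 114 FPKM in S100A4-positive libraries and at 177, 243 and 192 FPKM in S100A4-negative libraries, and the groups did not overlap. Its log2 fold change was -0.80 (SE 0.15, limma adjusted p = 0.00323), but with median-of-ratios rescaling it was -0.42 and did not pass (limma adjusted p = 0.0756). The ratio of Anxa2 to S100a10 within a library does not depend on scaling. It was 2.75, 3.53 and 2.83 in S100A4-positive libraries and 0.650, 0.505 and 0.528 in S100A4-negative libraries (p = 0.1 in an exact permutation test). The ratio of Anxa11 to S100a6 was 0.139 ± 0.0242 in S100A4-positive and 0.346 ± 0.120 in S100A4-negative libraries (SD, n = 3), without overlap. The ratio of Anxa1 to S100a11 overlapped, at 0.342 ± 0.180 in S100A4-positive and 0.595 ± 0.213 in S100A4-negative libraries (SD, n = 3; p = 0.3 in an exact permutation test). S100a11, the partner of annexin A1, did not pass (log2 fold change 0.37, limma adjusted p = 0.194), while with median-of-ratios rescaling it was at 0.75 and passed (limma adjusted p = 0.0441).

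Annexin A1 signals through formyl peptide receptors, and of the 3 such genes on the list examined, Fpr1 and Fpr2 rose and Fpr3 was listed at 0 in every library. Fpr1 was at 49.3, 190.2 and 98.8 FPKM in S100A4-positive libraries and at 7.74, 16.7 and 7.002 FPKM in S100A4-negative libraries (log2 fold change 3.20, SE 0.50, limma adjusted p = 0.00138). Fpr2 was at 60.95, 148 and 104 FPKM in S100A4-positive libraries and at 10.1, 13.8 and 5.21 FPKM in S100A4-negative libraries, a log2 fold change of 3.30 (SE 0.40). Both receptors were lowest in replicate 1 of the S100A4-positive libraries, the one in which Anxa1 was highest. Among the S100A4-negative libraries both receptors and Anxa1 were lowest in replicate 3. These orders were set side by side after the values were seen, and a link was not tested.

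Of 7 genes of the plasminogen system, 3 rose, 1 fell, 2 did not pass and 1 was not tested; Plg, plasminogen itself, was below 0.1 FPKM throughout. Plau, the urokinase activator of plasminogen, rose to 54.7, 81.1 and 72.7 FPKM in S100A4-positive libraries, against 2.59, 7.23 and 7.74 FPKM in S100A4-negative libraries (log2 fold change 3.45, SE 0.35, limma adjusted p = 2.14e-04). Its receptor gene Plaur rose by 2.11. Plat, the tissue activator of plasminogen, and Serpinb2 did not pass. Plat had a log2 fold change of 1.19 (limma adjusted p = 0.0502), and over the alternatives its limma adjusted p lay between 0.00103 and 0.152; it passed with median-of-ratios rescaling, with array weights and without S100A4-positive replicate 1, where the log2 fold change was 1.75. Plgrkt, another plasminogen receptor, fell by 0.35, a call that was lost in 10 of 16 alternatives, among them each S100A4-negative library left out and the median-of-ratios rescaling, where the value was 0.03.

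Of 15 membrane repair genes, 7 rose, 2 fell, 3 did not pass and 3 were not tested. Ehd1 and Ehd4, which shape endosomal membranes, rose by 1.97 and 1.10, and Myof, a relative of the repair protein dysferlin, by 1.80. Myof averaged 42.7 ± 8.94 FPKM in S100A4-positive and 13.3 ± 8.34 FPKM in S100A4-negative libraries (SD, n = 3). The 2 that fell were Capn1 and Vps4a (log2 fold changes -0.70 and -0.40), named after their values were seen. Vps4a lost its call in 7 alternatives, among them 4 of the 6 libraries left out (limma adjusted p of up to 0.0799) and the median-of-ratios rescaling, where it was at -0.03. Capn2, a calcium-activated protease subunit, rose by 0.71. It lost its call without S100A4-positive replicate 1 or 2 or S100A4-negative replicate 2 or 3 (limma adjusted p of up to 0.0787). Its call was also lost without the filter on low values (limma adjusted p = 0.0511). Of 8 genes of phosphatidylserine exposure, 2 rose, 1 fell and 5 did not pass. The scramblase gene Xkr8 rose by 0.88, the scramblase gene Ano6 by 0.60 and the flippase subunit gene Tmem30a fell by 0.33. With median-of-ratios rescaling, where 27.3% of all tested genes were called higher and 24.8% lower, 5 genes of this list were called higher and 0 lower, and Tmem30a was at 0.03. Tmem30a lost its call without any 1 library other than S100A4-positive replicate 1 (limma adjusted p of up to 0.0893). Its call was lost with quantile normalization and with voom and size factors too. Ano6 lost its call without S100A4-positive replicate 1 or S100A4-negative replicate 2 or 3 (limma adjusted p of up to 0.101). Without the filter on low values its call was lost too (limma adjusted p = 0.0655).

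Of 9 copines, another family of calcium-dependent phospholipid-binding proteins, 3 passed the filter on low values. Cpne2 rose by 1.47, Cpne7 fell by 1.74 and Cpne3 did not pass. The other annexin genes of the table were at or near 0: Anxa9 was at 0.666 to 0.983 FPKM, from 16 to 26 reads, Anxa8 and Anxa10 had at most 4 reads in any library, and Anxa13 was listed at 0 in each.

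**Figure D5:**
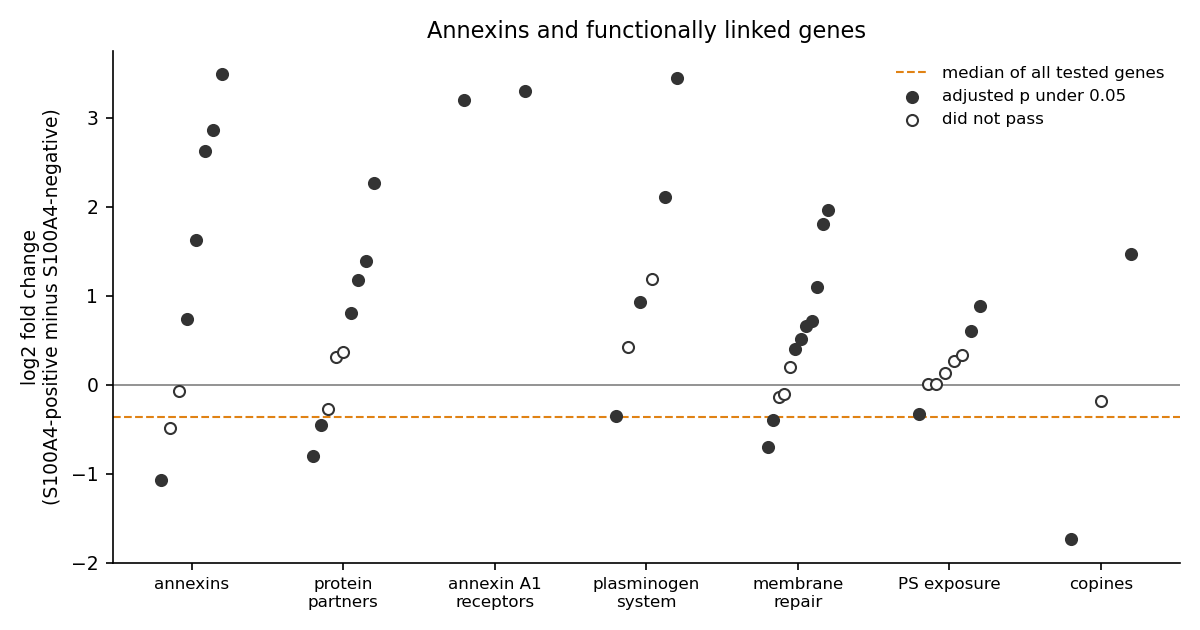
Log2 fold change, S100A4-positive minus S100A4-negative, of the 8 annexins and of the tested genes of 6 lists; filled points passed the test, open points did not, and the dashed line is the median of all tested genes (-0.36). Both annexin A1 receptor genes lie above 3, while the protein partners, repair and phosphatidylserine exposure genes lie on both sides of 0.

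The gene with the profile most like that of each annexin was sought among 7219 tested genes whose FPKM averaged 10 or more. Predicted genes, pseudogenes, genes with accession-like names and T cell receptor or antibody segments had been left out of these by name. Likeness was the root mean square difference between log2(FPKM + 1) profiles over the 6 libraries, each centred on its own mean. Anxa6 and Dnaja1, a heat-shock co-chaperone, differed by 0.0339, Anxa7 and Cd47, the surface protein that restrains phagocytosis, by 0.0460, and Anxa11 and Slc25a51 by 0.0498. Anxa5 was closest to Cdk14 (0.0860), Anxa2 to Stk40 (0.0948), Anxa1 to Eif2s3x (0.0997), Anxa4 to Lima1 (0.117) and Anxa3 to Prxl2b (0.194). Anxa3 had the least close match of the 8.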

How the data were processed

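Gene expression was measured in 6 libraries, 3 S100A4-positive and 3 S100A4-negative. Per the submitters' processing notes, HISAT2 2.1.0, Cufflinks and Cuffnorm were used on mm10, without saying which made which value; the counting tool and strand setting are not given in the sources used here. The deposited table gives FPKM per gene. A second table deposited by the authors compares the groups and holds, by its column headers, normalized read counts averaged per group, treated here as a signal. The authors deposited a log2 fold change beside them, and a p-value with its adjusted form; the test is not named. Read numbers were recovered from FPKM and the deposited group means, and all 135018 values above 0 lay within 0.1 of a whole read.

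Log2(FPKM + 1) was tested with limma 3.58.1 in R 4.3.3 (trended prior variance, mean FPKM of at least 1, Benjamini-Hochberg adjustment); 13241 genes were tested and 42710 left out. The count-based test was not used as the main test, since the table holds FPKM. Steps were tested on simulated reads in which 200 genes were changed, far fewer than were called in the data. Of the genes changed 1.5-fold 17.9% were called, of those changed 2-fold 74.6% and of those changed 4-fold 93.9%. There were 13 false calls. The Benjamini-Hochberg cutoff depends on how many genes differ, so these shares hold for the simulation and not for the main fit. A gene that did not pass may still differ by a small fold. Alternatives were a pseudocount of 0.1, a filter of 5 or none, quantile and median-of-ratios scaling, array weights, no trend, a replicate block, each library left out, and voom on recovered reads. Positions and overlaps are from GENCODE M21 (GRCm38, the build mm10 names), which held 55141 of 55951 gene identifiers. Other steps used Python 3.11.15, numpy 2.4.6, pandas 2.3.3, scipy 1.17.1 and matplotlib 3.10.9.

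The 8 annexins and the gene lists were chosen with earlier results of these data known. Named genes are the 8 annexins, up to 4 called genes per list with the largest change, S100a4, and the gene most like each annexin; others are named as chosen after their values were seen. The values of 1 gene counted in the plasminogen list are not reported here. Counting errors cover counting only.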

Additional observations from a re-analysis of the deposited data

How the results depend on the processing

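With all 16 alternatives 5 annexins were called higher, Anxa2, Anxa3, Anxa4, Anxa5 and Anxa7, and Anxa6 was called lower. The number called lower was 2 with array weights and with the replicate block, and 1 to 2 when each library was left out, the second gene being Anxa1. Of all tested genes, 3286 were called lower with median-of-ratios rescaling and 3156 with voom and size factors, against 5741 as deposited; higher calls were then 52.4% and 54.1% of all calls, and 42.0% with quantile normalization, against 30.4%. Leaving out each library gave 4537 to 5699 lower and 2183 to 2473 higher calls. The log2 difference of the summed annexin FPKM was 1.53 with median-of-ratios rescaling, and 1.10 to 1.21 when each library was left out. Anxa11 changed sign to 0.29, 0.16 and 0.31 with median-of-ratios rescaling, quantile normalization and voom with size factors, and to 0.0098 without S100A4-positive replicate 3; over the libraries left out in turn it ranged from -0.14 to 0.0098. The causes were not tested. Over the 16 alternatives the number called higher was 2 to 6 of the protein partners, 2 to 4 of the plasminogen genes, 5 to 8 of the membrane repair genes, 1 to 6 of the phosphatidylserine exposure genes and 2 of the annexin A1 receptors in each; the number called lower was 0 to 2, 0 to 1, 1 to 3, 0 to 1 and 0.

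The replicate numbers are shared between the groups. Deviations from the group means correlated at 0.38, 0.083 and 0.37 for numbers 1, 2 and 3, and at -0.38 to 0.15 between unlike numbers. Each S100A4-negative replicate correlated best with the S100A4-positive replicate of its own number. S100A4-positive replicate 2, however, correlated best with S100A4-negative replicate 3 (0.15). With 3 libraries per group these values cannot settle whether the numbers pair the samples, and the main fit used no pairing. With the replicate block 2669 genes were called higher and 6188 lower, and Anxa1 passed (log2 fold change -0.49, limma adjusted p = 0.0255).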
